A study of Mus musculus with 2 samples.

Results

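Ifng, Tnf and Csf2 encode interferon gamma, tumour necrosis factor and granulocyte-macrophage colony-stimulating factor, secreted proteins through which natural killer (NK) cells act on tumour cells and on other immune cells. The 3 genes were taken by symbol from the 53715 genes of both UMI count matrices, and were described in the barcodes that held at least 1 UMI of Ncr1. Ncr1 encodes NKp46, the receptor used for the sort. These were 7792 of 8386 barcodes in the library labelled IL-15SA and 11050 of 12430 kept barcodes in the library labelled IL-15SA+IL-21Fc, called the combination library here (12435 barcodes were deposited). Both libraries came from CT26_b2m-/- colon carcinoma, a mouse tumour labelled as lacking b2m, which encodes the beta-2 microglobulin chain of class I major histocompatibility complex molecules. CD45.2+ CD3- NKp46+ cells were sorted after enzymatic digestion at 37 °C for 60 min, and cells of 1 treatment were pooled before loading on a GEXSCOPE microwell chip. The sample titles give IL-15SA to both groups, whereas the series title names IL-21 as the treatment given alone, and the sample titles were followed. No untreated library was analysed here. The sources used here do not give the mouse strain, age, doses, times of treatment or number of animals pooled. With 1 library per treatment no difference between treatments could be tested, and every interval below is a 95% interval that covers counting error only.

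As background, interferon gamma signals through the receptor chains encoded by Ifngr1 and Ifngr2 and is the signature cytokine of NK cells and type 1 lymphocytes. Tumour necrosis factor is made as a membrane protein, is cut free by the protease ADAM17, and signals through Tnfrsf1a and Tnfrsf1b to NF-kappaB. Granulocyte-macrophage colony-stimulating factor acts on myeloid cells through Csf2ra and Csf2rb. Transcripts of all 3 genes are short-lived, since AU-rich elements in the 3′ untranslated region are bound by decay factors such as ZFP36 and can be kept stable after activation.

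The genes lie on 3 chromosomes of GRCm38. Ifng (ENSMUSG00000055170) spans chr10:118441046-118445892 on the + strand, Tnf (ENSMUSG00000024401) spans chr17:35199381-35202007 on the - strand, and Csf2 (ENSMUSG00000018916) spans chr11:54247271-54249667 on the - strand, each with 4 exons. The nearest protein-coding gene of Tnf is Lta, encoding lymphotoxin alpha, 1158 bases away. Annotated genes without a name of their own overlap Ifng (Gm49751) and Csf2 (Gm12223), and the strand used in counting is not given in the sources used here, so reads of each pair cannot be told apart. What the 3 share beyond their function is the AU-rich element, so the 30-base window of the 3′ untranslated region with the most ATTTA pentamers is shown for each, with the pentamers in capitals (GENCODE M21 transcripts). The windows lie at chr10:118445330-118445359 (+), chr17:35199679-35199708 (-) and chr11:54247329-54247358 (-).
Ifng: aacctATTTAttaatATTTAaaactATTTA
Tnf: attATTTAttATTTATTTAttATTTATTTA
Csf2: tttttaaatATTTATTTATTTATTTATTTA
The Ifng window held 3 pentamers, of 6 in a 631-base 3′ untranslated region. The Tnf window held 5, of 8 in 764 bases, and the Csf2 window held 5, of 9 in 317 bases; in both, neighbouring pentamers overlap. Of 20804 genes with an annotated 3′ untranslated region, 2.57% had a window with at least 3 pentamers and 0.274% one with at least 5.

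The 250 bases before the start sites of Ifng and Tnf are also shown, from the RefSeq promoter table of GRCm38.p6. GGAAA (the core of NFAT sites, on either strand, so TTTCC also counts) and TATAAA are in capitals. Co-detection in barcodes (below) was seen for every pair of the 3 cytokines and does not single out this pair. They lie at chr10:118440796-118441045 (+) and chr17:35202008-35202257 (-).
Ifng: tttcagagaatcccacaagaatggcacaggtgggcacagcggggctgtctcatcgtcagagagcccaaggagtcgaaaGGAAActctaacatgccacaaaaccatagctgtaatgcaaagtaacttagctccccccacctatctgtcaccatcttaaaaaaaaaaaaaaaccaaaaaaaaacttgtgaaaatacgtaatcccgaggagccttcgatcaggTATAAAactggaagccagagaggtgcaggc
Tnf: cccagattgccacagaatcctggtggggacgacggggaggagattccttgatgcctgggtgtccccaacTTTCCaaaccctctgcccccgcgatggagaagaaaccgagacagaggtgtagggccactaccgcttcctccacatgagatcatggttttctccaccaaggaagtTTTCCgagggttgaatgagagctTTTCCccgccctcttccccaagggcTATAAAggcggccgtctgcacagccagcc
The Ifng window held 1 GGAAA match and the Tnf window 3, and each held 1 TATAAA. Of 32851 RefSeq promoters, 55.6% held GGAAA on either strand and 7.59% held TATAAA. The AP-1 letters TGANTCA, found in 6.75% of promoters, and the kappaB motif, found in 3.90%, were in neither window. The Csf2 promoter of that table starts 232 bases upstream of the GENCODE start and is not shown. A match describes letters only.

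The Ncr1-positive barcodes held 29503540 UMIs in the IL-15SA library and 32047238 in the combination library, with medians of 3165.5 and 2424.5 UMIs per barcode. Because the deeper library detects any gene in more barcodes, shares are given both as counted and after each barcode was thinned at random to 1000 UMIs, and no barcode was shallower than that. Levels are UMIs summed over barcodes and scaled to 1000000 UMIs (CPM). Summed markers of tumour or stroma (6 of 9 measured at 5 CPM or more, collagens and fibronectin among them) came to 95.4 CPM in the first library and 189 CPM in the second, where all 6 were at least 1.5-fold higher. Of 10 macrophage or monocyte markers, Ly6c2 (1032 and 1125 CPM), which NK cells can also express, and Cd68 (28.9 and 37.6 CPM) reached 5 CPM, and the other 8 were at 0.437 CPM or less (Lyz2 at 0.169 and 0.218 CPM, C1qa at 0). Neutrophil markers were at 0.136 CPM or less and B cell markers at 1.06 CPM or less, and 22 and 10 Ncr1-positive barcodes held a Cd3e UMI. The libraries shared 60 barcode sequences.

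Ifng was at similar levels in both libraries and was found in about 1 in 5 barcodes at equal depth. Its level was 266 CPM (7856 UMIs, interval 260 to 272) under IL-15SA and 287 CPM (9188 UMIs, 281 to 293) in the combination library, a ratio of 1.08 (1.04 to 1.11). As counted, 41.4% and 37.1% of barcodes held an Ifng UMI. After thinning the order turned, with 19.8% (18.9 to 20.6) and 20.7% (19.97 to 21.5). The direction of the level ratio also depended on depth per barcode: with both libraries weighted to the same distribution of UMIs it was 0.975. As background, Ncr1-negative barcodes with at least 10 tumour or stroma UMIs were read in the same way. As counted, 6 of 27 (22.2%, level 45.9 CPM) in the IL-15SA library held an Ifng UMI. In the combination library 13 of 126 did (10.3%, 19.4 CPM). After thinning the shares were 0 of 27 (interval up to 12.8%) and 2.38% of 126. Unthinned, these reference barcodes had medians of 6897 and 4714 UMIs.

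Tnf was found in few barcodes and mostly as a single UMI. It was at 24.5 CPM (724 UMIs, 22.8 to 26.4) under IL-15SA and at 25.2 CPM (807 UMIs, 23.5 to 27.0) in the combination library, and the ratio of 1.03 had an interval of 0.927 to 1.14 that holds 1. A Tnf UMI was found in 7.61% and 5.89% of barcodes as counted. At equal depth the shares were 2.68% (2.33 to 3.07) and 2.64% (2.35 to 2.96). None of the thinned tumour or stroma reference barcodes held a Tnf UMI, and as counted 1 of 27 and 4 of 126 did.

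Csf2 was lower in the combination library over all Ncr1-positive barcodes, but not once 1 cluster of barcodes rich in tumour or stroma transcripts was left out. The level was 83.5 CPM (2465 UMIs, 80.3 to 86.9) in the IL-15SA library and 70.9 CPM (2273 UMIs, 68.0 to 73.9) in the combination library, a ratio of 0.849 (0.802 to 0.899). Shares were 12.0% and 7.96% as counted, and 5.39% (4.90 to 5.91) and 4.33% (3.96 to 4.73) at equal depth. Without cluster 7, described below, the levels were 70.6 and 72.1 CPM, the ratio was 1.02 (0.961 to 1.09), and the thinned shares were 5.04% and 4.30%. That pooled ratio joins clusters where Csf2 was lower (1, 3 and 5) and 1 where it was higher (2), given below. In the tumour or stroma reference barcodes of the IL-15SA library, which held no Ncr1 UMI, Csf2 was at 342 CPM, with 67 UMIs in 4 of 27 barcodes. In the same reference of the combination library it was at 5.96 CPM, with 4 UMIs in 2 of 126 barcodes.

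The 3 genes differed in how their UMIs were spread over barcodes. For Ifng, 593 and 809 barcodes (7.61% and 7.32%) held 50% of all its UMIs, and the highest barcode held 53 UMIs in the IL-15SA library and 80 in the combination library. For Csf2 it took 92 and 93 barcodes (1.18% and 0.842%) to reach 50%, and the highest held 63 and 66 UMIs. Barcodes with 10 or more Csf2 UMIs numbered 49 and 38 and carried 38.5% and 33.7% of its UMIs, against 15.8% and 12.7% for the 80 and 73 such barcodes of Ifng. For Tnf, 81.8% and 81.4% of positive barcodes held 1 UMI, and the highest barcode held 5 and 6. On counts thinned to 1000 UMIs, the variance over the mean of Csf2 was 3.47 and 4.09. Among 2197 and 2526 genes of near level its median was 1.10 and 1.12, and 1 gene lay above Csf2 in each library. The same measure was 2.04 and 2.18 for Ifng (median of near-level genes 1.13 and 1.15), and 1.13 and 1.14 for Tnf (1.09 and 1.11). For Ifng, 8 of 796 and 9 of 713 genes of near level were as high or higher. Csf2 was thus concentrated in a small set of barcodes in both libraries. Ifng was spread over more barcodes but was also uneven for its level, and Tnf was close to genes of its level. The intervals of levels and ratios, over all barcodes and by cluster, take UMIs as independent. They are therefore too narrow for Csf2 and, to a smaller degree, for Ifng.

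**Figure D1:**
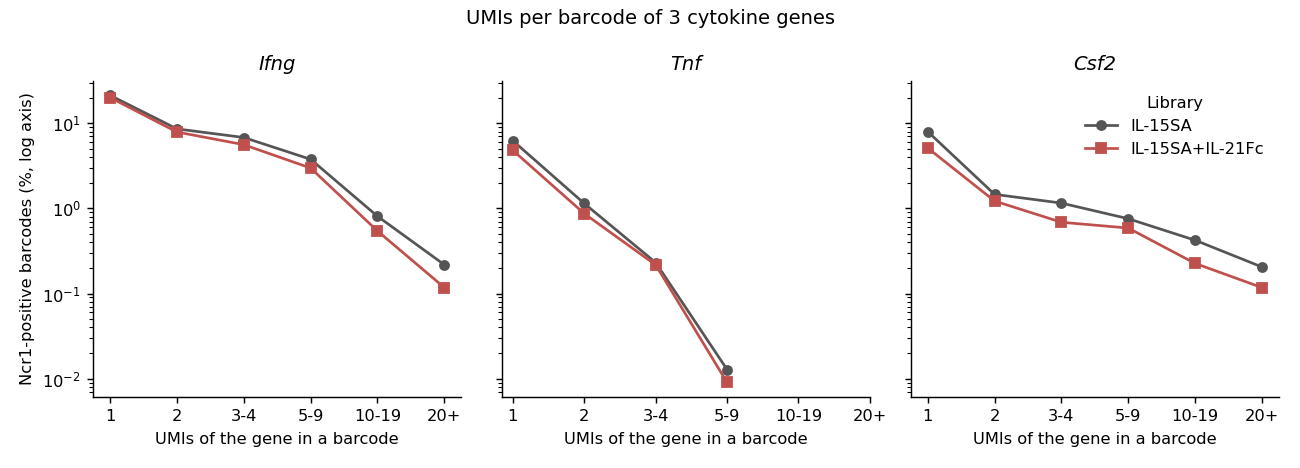
Share of Ncr1-positive barcodes (log axis, percent) by the number of UMIs of each gene in the barcode, with circles for the IL-15SA library and squares for the combination library; bins with no barcode are not drawn. Ifng lies above Csf2 at 1 UMI (21.2% against 7.98% in the IL-15SA library, 20.02% against 5.12% in the combination library), they are close at 20 or more UMIs (0.218% and 0.205%, 0.118% and 0.118%), and Tnf ends in the bin of 5 to 9 UMIs.

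All barcodes were grouped into 7 clusters from variable genes that did not include the 3 cytokines, and clusters are named by number with their leading genes. Cluster 1 was led by granzyme genes Gzmg, Gzmf and Gzmd and by Havcr2 (the checkpoint receptor TIM-3). Cluster 2 was led by Cd74, Il7r, Cxcr6 and Lta, and cluster 3 by the protease gene Cma1, the egress receptor gene S1pr5 and the chemokine genes Ccl5 and Ccl3. Cluster 5 was led by the cell cycle genes Esco2 and Nusap1, and cluster 6 by the interferon-induced genes Slfn5, Ifit2 and Mx2. Cluster 4 held 50 and 47 Ncr1-positive barcodes and is too small to read. Cluster 7 was led by Saa3, Dcn and Col1a2. Its NK marker sum was 5885 CPM against 18836 CPM or more in every other cluster, and its tumour or stroma sum was 1779 CPM against 149 CPM or less. It held 254 and 624 Ncr1-positive barcodes.

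Ifng was highest in cluster 6, at 570 CPM (521 to 621) in the IL-15SA library and 594 CPM (557 to 633) in the combination library. Clusters 2 (400 and 384 CPM) and 3 (395 and 400 CPM) came next, and their intervals overlapped. Cluster 5 followed at 240 and 278 CPM and cluster 1 at 217 and 190 CPM, and cluster 7 was lowest of the 6 larger clusters at 110 and 53.2 CPM. At equal depth 30.6% and 30.9% of cluster 6 barcodes held an Ifng UMI, against 6.69% and 6.09% in cluster 7. The order of clusters 6, 2 or 3, 5, 1 and 7 was the same in both libraries.

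Tnf was highest in cluster 2 among the larger clusters, at 50.5 CPM (42.1 to 60.1) and 48.9 CPM (42.6 to 55.8). Clusters 3 (29.3 and 33.6 CPM), 6 (32.3 and 26.9 CPM) and 5 (26.7 and 23.1 CPM) had overlapping intervals within each library, apart from clusters 3 and 5 of the combination library, where the interval of cluster 3 was 28.8 to 39.0 and that of cluster 5 was 20.1 to 26.3. Cluster 1 was at 16.1 and 15.03 CPM, and cluster 7 at 5.99 and 6.86 CPM. Ifng and Tnf were thus both low in clusters 1 and 7, but led different clusters.

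Csf2 had 2 high places that differed between the libraries. In the IL-15SA library it was highest in cluster 7, at 451 CPM (411 to 495, 452 UMIs in 61 of 254 barcodes), followed by cluster 2 at 146 CPM (131 to 162). In the combination library it was highest in cluster 2, at 205 CPM (192 to 219), and cluster 7 was at 55.3 CPM (46.2 to 65.7). The remaining larger clusters lay between 57.7 and 78.5 CPM in the IL-15SA library and between 39.3 and 78.9 CPM in the combination library. Cluster 7 held 18.3% of the Csf2 UMIs of the IL-15SA library with 3.396% of all UMIs, and 5.68% with 7.28% in the combination library. Cluster 2 held 14.9% with 8.52% in the IL-15SA library, and 40.7% with 14.04% in the combination library. Of the 49 barcodes with 10 or more Csf2 UMIs in the IL-15SA library, 14 were in cluster 7, 13 of which also held a tumour or stroma UMI, and 13 were in cluster 5, 11 in cluster 1 and 8 in cluster 2. Of the 38 in the combination library, 22 were in cluster 2 and 2 in cluster 7. The 14 barcodes of cluster 7 in the IL-15SA library had a median of 9970.5 UMIs, and the cluster's tumour or stroma sum was 1779 CPM. Holding such a UMI there is thus no separate reading.

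**Figure D2:**
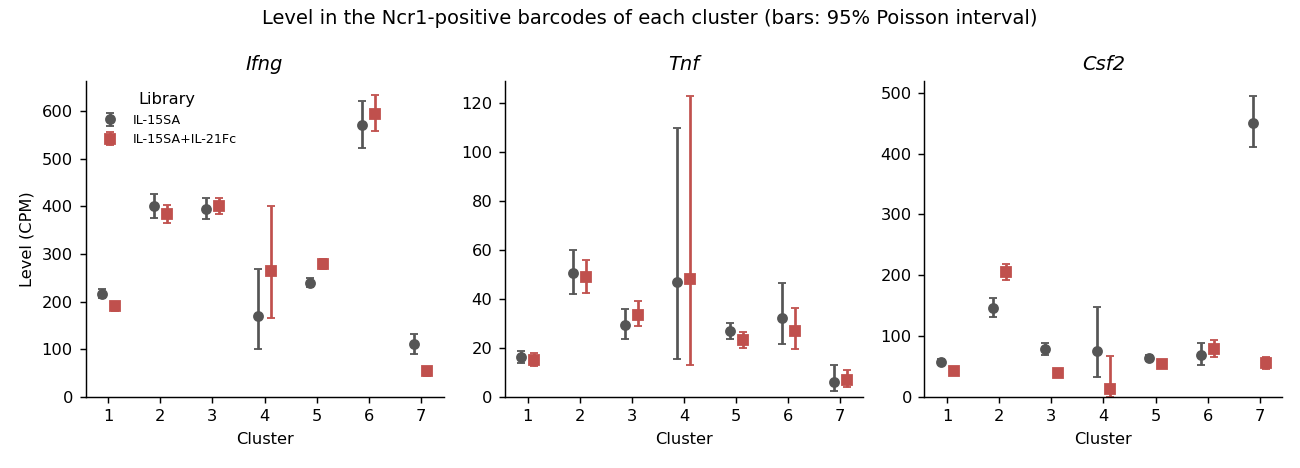
Level (CPM) of each gene in the Ncr1-positive barcodes of clusters 1 to 7, with circles for the IL-15SA library, squares for the combination library and bars for 95% Poisson intervals. Ifng peaks in cluster 6, Tnf in cluster 2 apart from the small cluster 4, and Csf2 in cluster 7 of the IL-15SA library and cluster 2 of the combination library.

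Within clusters the library ratio of Csf2 ran both ways. The intervals of these ratios take UMIs as independent. They do not cover the concentration of Csf2 UMIs in few barcodes and are too narrow for it. Combination over IL-15SA was 1.41 (1.24 to 1.59) in cluster 2, 1.14 (0.836 to 1.57) in cluster 6, 0.845 (0.752 to 0.949) in cluster 5, 0.734 (0.645 to 0.834) in cluster 1, 0.50 (0.413 to 0.606) in cluster 3 and 0.123 (0.100 to 0.149) in cluster 7. At equal depth the share of cluster 2 barcodes with a Csf2 UMI was 8.70% and 7.99%, so the higher level there went with more UMIs per positive barcode and not with more positive barcodes. In cluster 3 both moved down, the share from 5.67% to 3.35%. Ifng ratios stayed between 0.874 (0.821 to 0.931, cluster 1) and 1.16 (1.10 to 1.22, cluster 5) in the larger clusters other than cluster 7, where the ratio was 0.484 (0.372 to 0.632). All Tnf intervals included 1.

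**Figure D3:**
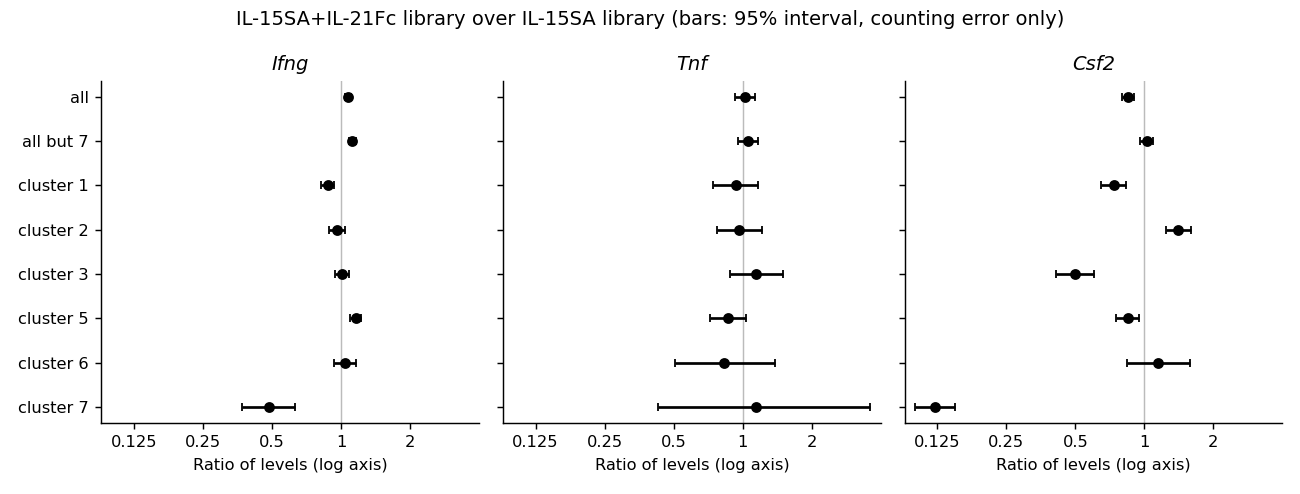
Level in the combination library over level in the IL-15SA library (log axis) for all Ncr1-positive barcodes, for all but cluster 7 and for each cluster except the small cluster 4, with bars for 95% intervals of counting error. The Csf2 ratio is 0.849 over all barcodes and 1.02 without cluster 7, and lies above 1 in cluster 2 and below 1 in clusters 1, 3, 5 and 7.

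Barcodes positive for 1 of the cytokines were positive for another more often than depth alone gave. With barcodes binned into 10 bins of UMIs, the odds ratio of Ifng with Tnf was 1.40 (304 barcodes with both) in the IL-15SA library and 1.45 (307) in the combination library. For Ifng with Csf2 it was 1.24 (447) and 1.37 (402), and for Tnf with Csf2 it was 1.549 (106) and 1.65 (83). Binned by cluster as well as depth, the values were 1.29 and 1.33, 1.26 and 1.349, and 1.56 and 1.52. All 3 were found in 64 barcodes (0.821%) and 46 barcodes (0.416%), where independence within depth bins gave 34.6 and 22.4, or 1.85 and 2.06 times that number. Most positive barcodes still held only 1 of the genes: Ifng alone was in 32.6% and 31.2% of all Ncr1-positive barcodes, Csf2 alone in 5.71% and 3.99%, Tnf alone in 3.17% and 2.78%, and 49.2% and 55.7% held none.

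Among bins of Csf2 UMIs, the Ifng and Tnf shares were highest in barcodes with 5 or more. An Ifng UMI was present in 40.6% of IL-15SA barcodes with no Csf2 UMI, 44.2% with 1, 49.0% with 2 to 4 and 66.7% (56.9 to 75.5, 108 barcodes) with 5 or more. In the combination library the shares were 36.4%, 44.3%, 41.2% and 62.1% (52.0 to 71.5, 103 barcodes), so the share did not rise at each step there. The Tnf share was 7.10%, 9.16%, 13.7% and 19.4% in the IL-15SA library and 5.59%, 9.01%, 7.11% and 16.5% in the combination library. Barcodes with 5 or more Csf2 UMIs were deeper (medians of 4225 and 3316 UMIs), but after thinning the ends of the range still stood at 19.2% and 38.9% in the IL-15SA library and at 20.2% and 37.9% in the combination library. Seen from Ifng, a Csf2 UMI was present in 10.7% and 6.88% of barcodes with no Ifng UMI and in 23.0% and 16.7% of those with 5 or more. From 0 to 2 to 4 Tnf UMIs the Csf2 share went from 11.5% to 31.8% and from 7.66% to 19.2%.

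**Figure D4:**
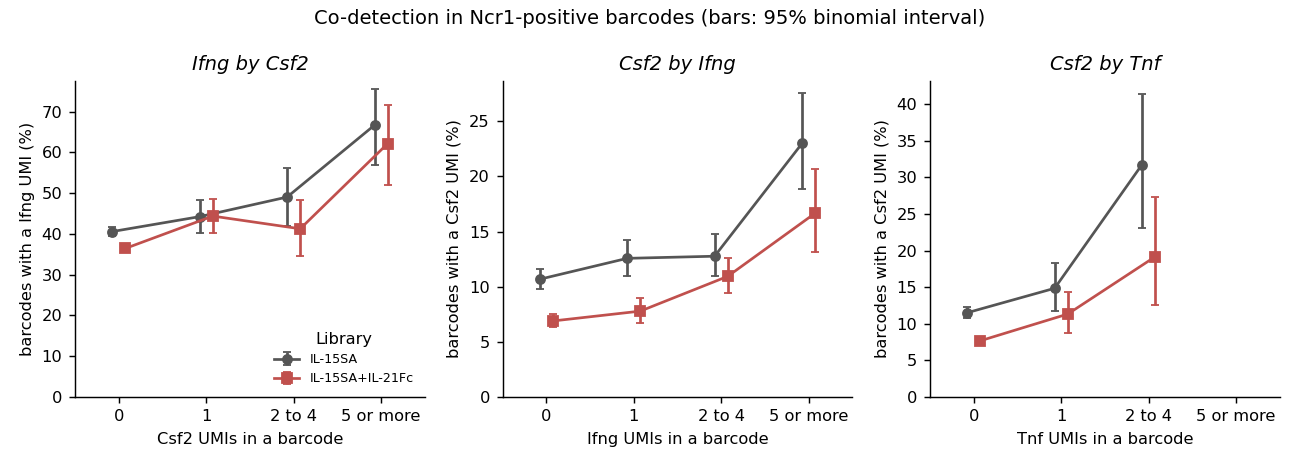
Share of Ncr1-positive barcodes with a UMI of the partner gene (percent) by the number of UMIs of the other gene in the barcode, as counted, with circles for the IL-15SA library, squares for the combination library and bars for 95% binomial intervals. In each panel and library the highest bin drawn lies above the bin of 0 UMIs; single barcodes with 5 or more Tnf UMIs are not drawn.

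Genes that accompanied each cytokine were read as the CPM in positive over negative barcodes, with the negative barcodes weighted to the depth of the positive ones, in each library on its own. A gene was counted where it was at least 1.5-fold apart in the same direction in both libraries, among genes at 50 CPM or more. Ifng had 5 of 2538 higher (0.197%) and 7 lower (0.276%), Tnf had 7 of 2539 higher (0.276%) and 8 lower (0.315%), and Csf2 had 5 of 2538 higher (0.197%) and 0 lower (0%). Each library gave its own reading of the association.

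The 5 genes higher with Ifng were the chemokine genes Ccl3 and Ccl4, Csf2, Gadd45b and Cd69. Ccl4, a chemokine gene, was at 3010 CPM in Ifng-positive and 1455 CPM in Ifng-negative barcodes of the IL-15SA library, and at 3944 and 2086 CPM in the combination library (log2 ratios 1.05 and 0.92). Ccl3, its close relative, had log2 ratios of 0.96 and 0.99. Ccl4 was graded over the bins of 0, 1, 2 to 4 and 5 or more Ifng UMIs, at 1651, 2295, 3198 and 5004 CPM in the IL-15SA library and at 2270, 3053, 4289 and 6633 CPM in the combination library (no depth weighting). Csf2 (0.61 and 0.88), the stress-response gene Gadd45b (0.66 and 0.69) and Cd69, an early activation marker (0.60 and 0.69), also passed the fold. Nr4a1, an immediate early nuclear receptor gene (0.54 and 0.66), Xcl1, a chemokine that draws XCR1+ dendritic cells (0.61 and 0.53), Atf3 (0.58 and 0.51), Ccl5 (0.65 and 0.51) and the adhesion gene Icam1 (0.49 and 0.56) made up the 10 highest. Weighting by cluster as well as depth left 3 genes past the fold, Ccl3 (0.78 and 0.74), Ccl4 (0.90 and 0.69) and Csf2 (0.90 and 0.83). Without cluster 7, 4 of the 5 stayed past it and Cd69 had 0.57 and 0.60.

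The genes lower in Ifng-positive barcodes were led by Tm4sf1 (-0.95 and -1.03), Pcolce (-0.91 and -1.03), Cyr61 (-0.91 and -1.31), Cd63 (-0.81 and -1.03) and Ctsl (-0.75 and -1.20). The summed tumour or stroma markers were at 73.7 against 113 CPM and at 105 against 269 CPM in positive and negative barcodes. Without cluster 7 these 5 genes lay between -0.16 and 0.24. Of the 7 lower genes, 1 (Gzmd, a granzyme gene that leads cluster 1, named after its values were seen) was still at least 1.5-fold lower without cluster 7, where 2 genes passed in all, and 0 were lower once cluster was weighted. The genes lower with Tnf were led by Ctsl (-1.38 and -1.12), Tm4sf1 (-1.21 and -0.95), Cyr61 (-1.26 and -0.91), the metallothionein gene Mt2 (-1.42 and -0.77) and Pcolce (-1.28 and -0.76). Of these 8 lower genes, 0 were still past the fold without cluster 7, and 0 once cluster was weighted.

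The 7 genes higher with Tnf were Csf2, Emb, Tnfsf9, Xcl1, Cd69, Atf3 and Cd226. Csf2 was at 145 against 75.6 CPM in Tnf-positive and Tnf-negative barcodes of the IL-15SA library, and at 157 against 63.5 CPM in the combination library (log2 0.94 and 1.29). Tnfsf9, encoding the ligand of the costimulatory receptor 4-1BB, had 0.71 and 1.00, Atf3, a stress-induced transcription factor gene, 0.63 and 1.10, and Cd226, encoding the activating receptor DNAM-1, 0.59 and 0.62. Emb (0.84 and 0.74), Xcl1 (0.86 and 0.68) and Cd69 (0.68 and 0.75) were the other genes past the fold. Nfkbiz (0.74 and 0.56), Serpina3g (0.63 and 0.56) and Gadd45b (0.79 and 0.55) were just below it in 1 library. With cluster weighting Csf2 (1.15 and 1.06) and Tnfsf9 (0.71 and 0.96) alone stayed past the fold. Without cluster 7, 6 of the 7 did, and Cd226 had 0.58 and 0.57. Lta, the neighbour of Tnf, was at 28.5 against 16.1 CPM and at 86.2 against 22.0 CPM. Single Ncr1-positive barcodes held up to 21 and 63 Lta UMIs, and whether they were Tnf-positive is not given here.

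The 5 genes higher with Csf2 were Gadd45b, Xcl1, Tnfsf9, Nfkbia and Nfkbiz. Gadd45b was at 96.5 CPM in Csf2-positive and 41.7 CPM in Csf2-negative barcodes of the IL-15SA library, and at 137 and 63.3 CPM in the combination library (log2 1.19 and 1.10). It was graded, at 44.9 CPM with no Csf2 UMI, 58.4 with 1, 128 with 2 to 4 and 226 with 5 or more in the IL-15SA library, and at 63.4, 98.1, 161 and 262 CPM in the combination library (no depth weighting). Without cluster 7 the highest bin was at 281 and 301 CPM. Xcl1 (0.93 and 1.00), Tnfsf9 (0.86 and 1.19), Nfkbia, which encodes the inhibitor I-kappaB alpha (0.82 and 0.74), and Nfkbiz, a relative of it (0.60 and 0.69), were the other genes past the fold. With cluster weighting 4 of the 5 stayed past it and Nfkbiz had 0.55 and 0.60, and without cluster 7 all 5 did. Ifng (0.58 and 0.76), Serpina3g (0.58 and 0.80), Emb (0.55 and 0.57), Nr4a1 (0.51 and 0.68) and Icam1 (0.50 and 0.74) followed. At the low end were Gzmk (-0.59 and -0.58), Klrg1, a receptor of mature NK cells (-0.34 and -0.50), the Ly49 family members Klra13-ps (-0.42 and -0.36) and Klra1 (-0.29 and -0.35), and Gpn1 (-0.32 and -0.28), with Gzmk past 1.5-fold in the IL-15SA library and just short of it in the combination library. Reads of Klra genes may be split among near-identical family members. Without cluster 7, Gzmk had -0.55 and -0.55, Klrg1 -0.27 and -0.49 and Klra1 -0.21 and -0.37.

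**Figure D5:**
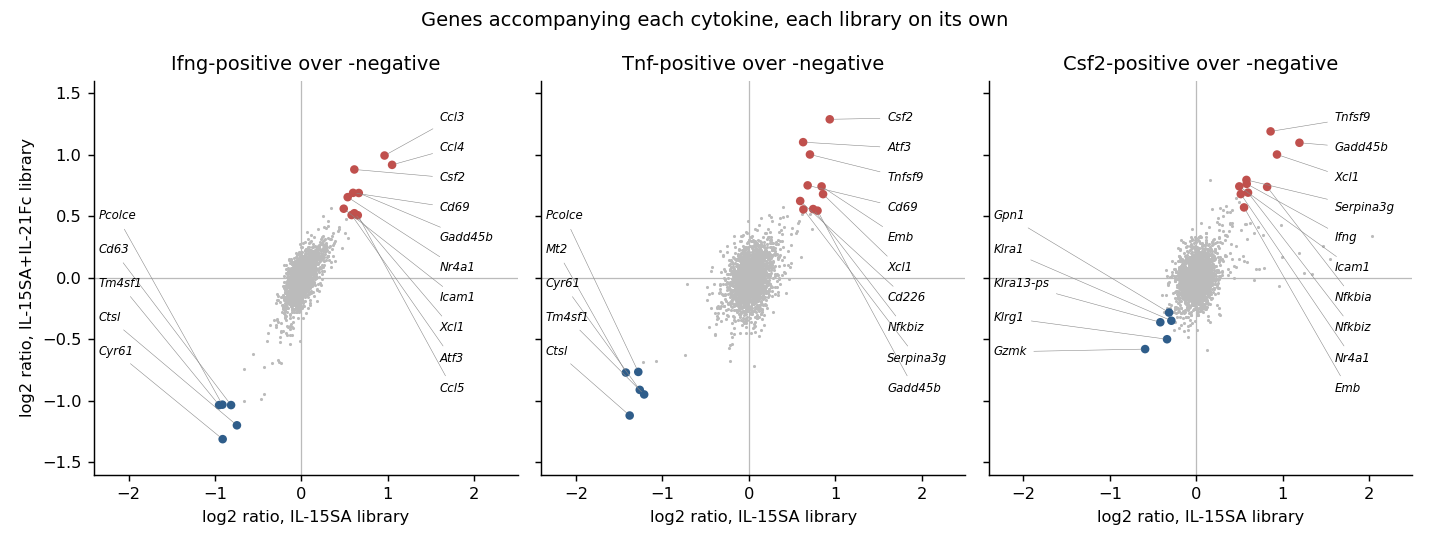
Log2 ratio of CPM in positive over depth-weighted negative barcodes, IL-15SA library on the x axis and combination library on the y axis, 1 point per gene, for Ifng, Tnf and Csf2. Named genes are the 10 highest (red) and 5 lowest (blue) by the library nearer to 0, and the low group of Ifng and Tnf lies apart from the cloud whereas that of Csf2 lies at its edge.

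Lists of related genes were read in the same way, now including genes at 5 CPM or more in 1 library, where 0.139%, 0.335% and 0.543% of 8655 genes were at least 1.5-fold higher with Ifng, Tnf and Csf2, and 1.51%, 1.71% and 0.0347% at least 1.5-fold lower. Of 15 measured genes for co-secreted effectors, 4 were higher with Ifng (Ccl1, Ccl3, Ccl4, Tnfsf14), 3 with Tnf (Xcl1, Lta, Tnfsf14) and 4 with Csf2 (Ccl1, Xcl1, Lta, Tnfsf14). Median log2 ratios of that list were 0.34 and 0.29 with Ifng, 0.16 and 0.01 with Tnf, and 0.11 and 0.35 with Csf2, where medians over all genes lay between -0.02 and 0.01. Tnfsf14, encoding the ligand LIGHT, was the member found with all 3. With Csf2, Tnfsf14 was at 18.3 against 9.14 CPM and at 25.7 against 10.9 CPM, and Lta at 29.3 against 16.2 CPM and at 62.6 against 23.4 CPM. The 120 and 185 Lta UMIs of Csf2-positive barcodes came from 58 and 67 barcodes, and the highest held 21 and 28. Ccl1, a chemokine gene, was at 29.6 against 2.94 CPM and at 36.9 against 5.30 CPM with Csf2, but these 121 and 109 UMIs came from 16 and 14 barcodes, 1 of which held 36 and 60 of them. The spread of Ccl1 UMIs over Ifng-positive barcodes is not given here. The cytolytic genes did not follow: Gzma had -0.26 and -0.42, Prf1 -0.23 and -0.24 and Gzmb -0.06 and -0.06 with Csf2, and 0.06 and 0.07, 0.02 and 0.00, and 0.08 and 0.21 with Ifng.

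Most receptors and transcription factors that drive Ifng were slightly higher with it. None of 18 measured members passed the fold with Ifng, where 0.139% of all genes did. Of the 18, 12 were above 0 in both libraries, where 28.1% of all genes were, and 2 were below 0 in both. Without cluster 7 these counts were 10 and 3. Medians were 0.10 and 0.14. The members farthest up were Stat4, which transmits IL-12 signals (0.51 and 0.20), and Il21r, the IL-21 receptor gene (0.35 and 0.48). Tbx21, encoding T-bet, had 0.21 and 0.18 and Eomes -0.07 and -0.06. Il2rg, which encodes the receptor chain shared by IL-15 and IL-21, held 0 UMIs in both libraries, and so did Irf8 and Igtp. An entire absence of such a gene can arise from read assignment, which was not tested. Interferon gamma receptor and response genes also had none of 12 past the fold with Ifng (medians 0.08 and 0.08). Of these 12, 10 were above 0 in both libraries and 1 was below 0 in both.

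For genes of tumour necrosis factor signalling and NF-kappaB feedback, 0 of 19 measured passed the fold with Ifng, 0 with Tnf and 3 with Csf2 (Nfkbia, Nfkbiz and Rel, the latter encoding an NF-kappaB subunit, at 0.79 and 0.67). Medians were 0.04 and 0.02, 0.25 and 0.18, and 0.14 and 0.26. Of the 19, 8, 10 and 13 were above 0 in both libraries, where 28.1%, 27.5% and 29.6% of all genes were. Below 0 in both were 5, 1 and 1. Tnfaip3, encoding the feedback inhibitor A20, had 0.28 and 0.41 with Ifng, 0.44 and 0.51 with Tnf and 0.31 and 0.50 with Csf2. Of the factors that bind AU-rich transcripts or degrade cytokine mRNA, 0 of 10 passed the fold with any of the 3. Of the 10, 5, 6 and 5 were above 0 in both libraries, and 4, 2 and 3 below 0 in both. Zfp36 had 0.29 and 0.23 with Ifng, 0.58 and 0.47 with Tnf and 0.62 and 0.45 with Csf2, and Zfp36l1 had 0.33 and 0.26, 0.50 and 0.41, and 0.41 and 0.55. Elavl1, which encodes the stabilising protein HuR, lay between -0.09 and 0.09.

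Of the relatives of Csf2, only Csf2ra (9.83 and 10.6 CPM) and Csf1 (10.3 and 15.9 CPM) reached 5 CPM. Csf2rb held 0 UMIs in the IL-15SA library and was at 0.0624 CPM in the combination library, and Il3, the neighbouring cytokine gene, held 0 in both. Of 23 measured immediate early and activation genes, 1 passed the fold with Ifng and 1 with Tnf (Cd69 in each) and 0 with Csf2. Of the 23, 17, 16 and 17 were above 0 in both libraries, where 28.1%, 27.5% and 29.6% of all genes were. Medians were 0.14 and 0.17, 0.19 and 0.23, and 0.24 and 0.28. Heat shock and other genes known to respond to tissue dissociation, measured because the tumours were digested at 37 °C, had medians of 0.10 and 0.10 with Ifng, 0.04 and 0.16 with Tnf and 0.12 and 0.14 with Csf2, and 1 of 10 passed the fold (Atf3 with Tnf). Their part in the accompanying genes was not tested.

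Of 6 measured markers of type 1 innate lymphoid cells, 0 passed the fold with Ifng, 2 with Tnf and 2 with Csf2. These were Il7r, the IL-7 receptor gene, and Cxcr6, which also lead cluster 2, with Tnf (Il7r 1.29 and 0.95, Cxcr6 0.77 and 0.61) and with Csf2 (0.84 and 1.34, 0.64 and 1.14), whereas they had 0.24 and 0.41 and 0.37 and 0.48 with Ifng. Without cluster 7, 1 of them stayed past the fold with Tnf (Cxcr6 had 0.74 and 0.54) and both did with Csf2. Itga1, an integrin gene of the same list, was below 0 with all 3 cytokines (-0.03 and -0.10 with Ifng, -0.13 and -0.25 with Tnf, -0.27 and -0.27 with Csf2). Of 4 measured markers of type 2 and type 3 innate lymphoid cells, 2 passed the fold with Csf2, and 1 did without cluster 7. Of the 4, 3 were above 0 in both libraries with Csf2 and 1 was below 0 in both. Rora, of this list, had 0.69 and 0.90 with Csf2. Il1rl1, the IL-33 receptor gene and also of this list, had 1.34 and 0.85 with Csf2, but 0.01 and 0.11 without cluster 7. With Tnf it was lower, at -1.69 and -0.66, and had -0.25 and -0.14 without cluster 7. Of 9 measured NK markers, 8 were below 0 in both libraries with Csf2 (medians -0.17 and -0.13), where 25.9% of all genes were. With Ifng 7 were above 0 in both (medians 0.06 and 0.08), where 28.1% of all genes were. Without cluster 7, 8 were still below 0 with Csf2 (medians -0.10 and -0.09), but 4 were above 0 with Ifng (medians 0.02 and 0.00). The tumour or stroma sum in Csf2-positive and Csf2-negative barcodes was 135 against 87.3 CPM in the IL-15SA library and 219 against 204 CPM in the combination library.

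Between the libraries, 306 of 9389 genes at 5 CPM or more (3.26%) were higher under the combination by 1.5-fold or more and 49 (0.522%) lower, and none of the 3 cytokine genes was among them. Of 15 co-secreted effectors, 4 were higher, Ccl5 (3295 and 7622 CPM, ratio 2.31), Ccl3 (212 and 353 CPM, 1.67), Ltb (494 and 798 CPM, 1.62) and Xcl1 (825 and 1265 CPM, 1.53), and 2 were lower, Gzmc (995 and 587 CPM, 0.590) and Gzmk (163 and 105 CPM, 0.644). Dusp1 (394 and 707 CPM, 1.79) and Fos (168 and 262 CPM, 1.56) were higher among 23 immediate early and activation genes, and Tnfrsf9, encoding 4-1BB (551 and 332.8 CPM, 0.604), was lower. Of the decay factors, 1 of 10 was higher, Zfp36 (424 and 640 CPM, 1.51). Of 12 interferon gamma receptor and response genes, Iigp1 was higher (9.39 and 21.2 CPM, 2.26). None of 18 drivers of Ifng passed the fold, and Il21r was at 16.6 and 20.002 CPM (ratio 1.20). These ratios pool all clusters, and cluster make-up differed between the libraries. Cluster 3, with Ccl5 and Ccl3 among its leading genes, held 1340 of 7792 and 2535 of 11050 Ncr1-positive barcodes. The granzyme-led cluster 1 held 2979 and 3075. The part of cluster make-up in these ratios was not tested.

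Over the 12 combinations of cluster and library with at least 100 Ncr1-positive barcodes, Pearson's r of log2(CPM + 1) described which genes ran most like each cytokine. The combinations share libraries, clustering and normalization and are not independent, so no test was made. Ifng was most like Ly6c2 (0.973), Plscr1 (0.955), Nsd3 (0.951) and Il12rb2, the IL-12 receptor gene (0.948). Tnf was most like the heat shock genes Hspa1a (0.967) and Hspa1b (0.960), Cd82 (0.960) and the NK receptor gene Klrc2 (0.956). Csf2 was most like Nfkbib, another I-kappaB gene (0.864), Zfp622 (0.831), Prpf38b (0.798) and Cfap36 (0.784). Ifng and Tnf had an r of 0.868, and Csf2 had -0.09 with Ifng and -0.11 with Tnf. The 12 include cluster 7 of both libraries, which was rich in tumour or stroma transcripts. There Ifng and Tnf were lowest of the larger clusters, and Csf2 was highest in the IL-15SA library. Values of r without cluster 7 are not given here, so likeness among the other clusters alone cannot be read from any of these values.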

How the data were processed

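Single-cell UMI counts of sorted tumour NK cells were analysed in 2 libraries, 1 per treatment. The authors deposited whole-number UMI counts per gene and barcode, already reduced to called cells per the file headers and values. The submitters' processing notes name cutadapt, featureCounts, Seurat 4, Scanpy and mm10, without roles; the sources used here do not give the annotation release or strand setting. Barcodes with under 200 genes or over 20% mitochondrial UMIs were removed (0 and 5). Levels are CPM with exact Poisson intervals, shares have Clopper-Pearson intervals, and ratios have exact conditional binomial intervals. Co-detection is the Mantel-Haenszel odds ratio over 10 depth bins. Fold changes add 1 CPM to both sides. Clusters came from 2000 variable genes without the 3 cytokines, 30 principal components, 15 neighbours and Leiden resolution 0.5 (scanpy 1.11.5, igraph 0.11.9). Scrublet's automatic threshold marked 2 and 0 barcodes (0.0238% and 0%), so it did not work. Barcodes with scores above the cutoff of the top 5% (353 and 484 barcodes, fewer than 5% of each library) were removed as an alternative only. No test was made, since cells are not replicates. Named genes were the 10 highest and 5 lowest per cytokine at 50 CPM or more in both libraries, ranked by the library nearer to 0, the 4 most alike over clusters, and members of each list. The cytokines, lists and alternatives were chosen with earlier results of these data known. Calculations were tested on simulated data with independent Poisson counts. Those data lack the concentration of UMIs in few barcodes seen for Csf2, so they do not test the intervals under it.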

Additional observations from a re-analysis of the deposited data

Results flagged for a closer look

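The Csf2 ratio between the libraries did not lie on the same side of 1 in all clusters, going by intervals of counting error. These intervals take UMIs as independent, but Csf2 UMIs were concentrated in few barcodes. They are therefore too narrow to judge direction. The combination over IL-15SA ratio was 1.41 in cluster 2 and 0.734, 0.50, 0.845 and 0.123 in clusters 1, 3, 5 and 7. For Ifng it was 1.16 in cluster 5, against 0.874 in cluster 1 and 0.484 in cluster 7. The differences between clusters were not tested, since each treatment had 1 library.

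The cytokines were also present in barcodes without an Ncr1 UMI, which the comparisons above do not use. With IL-15SA first and the combination second, Ifng was at 212 and 157 CPM, Tnf at 18.0 and 16.2 CPM, and Csf2 at 130 and 38.7 CPM. Outside cluster 7 these barcodes held Ifng at 289 and 298 CPM, Tnf at 23.5 and 31.1 CPM and Csf2 at 55.6 and 45.2 CPM, and within cluster 7 they held Csf2 at 281 and 33.3 CPM.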

How the results depend on the processing

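No paired analysis was possible because each treatment had 1 library. Alternatives that leave out cluster 7, or UMIs of the highest barcodes, or that leave out tumour-rich barcodes from the accompanying genes, were chosen after seeing the data. The Ifng ratio of 1.08 turned to 0.975 with both libraries weighted to the same depth and was 1.00 with equal cluster weights. It was 1.11 with at least 2 Ncr1 UMIs, 1.04 in all barcodes, 1.11 without barcodes of 3 or more tumour or stroma UMIs, 1.12 without cluster 7 and 1.12 without UMIs in barcodes of 10 or more. The Tnf ratio of 1.03 was 0.921 at the same depth. The Csf2 ratio of 0.849 turned to 1.02 without cluster 7. It was 0.971 with at least 2 Ncr1 UMIs, 0.793 in all barcodes, 0.973 without tumour-rich barcodes, 0.704 with equal cluster weights and 0.915 without UMIs in barcodes of 10 or more. Shares depend on depth by construction. At 500 UMIs they were 11.1% and 11.9% for Ifng, 1.27% and 1.38% for Tnf, and 2.87% and 2.42% for Csf2. At 2000 UMIs they were 30.4% and 30.6%, 4.39% and 4.18%, and 8.05% and 6.71%. As counted they were 41.4% and 37.1%, 7.61% and 5.89%, and 12.0% and 7.96%, with 5.47% and 6.09%, 0.205% and 0.226%, and 1.45% and 1.18% for at least 2 UMIs after thinning, and 19.95% for Ifng in all barcodes of the combination library. Without bins, on barcodes thinned to 1000 UMIs, odds ratios were 1.79 for Ifng with Tnf (IL-15SA), 1.46 and 1.65 for Ifng with Csf2, and 2.35 and 2.13 for Tnf with Csf2. Accompanying genes numbered 2 and 3 higher with Ifng and Tnf without weighting, and 3 and 2 higher with 0 lower for each with cluster weighting. At 20 CPM or more there were 29 lower with Ifng, 13 higher and 28 lower with Tnf, and 15 higher with Csf2. With positives of at least 2 UMIs there were 14 higher and 13 lower with Ifng, 19 higher with Tnf, and 26 higher and 7 lower with Csf2. Without tumour-rich barcodes, and likewise without cluster 7, there were 2 lower with Ifng, 0 lower with Tnf and 8 higher with Csf2. Genes higher and lower in the combination library numbered 106 and 27 at 20 CPM or more, and 152 and 25 with 5 CPM added. None of these library counts leaves out barcodes rich in tumour or stroma transcripts. The causes of other shifts were not tested. Counting error alone leaves the Tnf ratio an interval of 0.927 to 1.14.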
